A study of Homo sapiens with 6 samples.

Results

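Transcripts of cholesterol synthesis and of its sterol-responsive control were compared between Jurkat cells given the chemokine CXCL12 and Jurkat cells left untreated. The genes were a chosen list of 28 symbols: enzymes from acetoacetyl-CoA to cholesterol, the sensors that govern them, and further targets of the SREBP transcription factors. Of these, 25 had a probe set named in the array's annotation, 1 each, among 17687 named genes in all. FDFT1, NPC2 and LPIN1 had no probe set under that symbol here and were not analysed. CYP51A1, the lanosterol demethylase, had signals of 3.07 to 3.39 on the log2 scale with CXCL12 and 3.17 to 3.46 untreated. Its mean lay below the 25th percentile of all probe sets, a log2 mean of 4.44, under which probe sets were left out as dim, so it was not tested. The remaining 24 genes were tested within 16086 probe sets.

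Jurkat is a permanent line grown from a human T-cell leukaemia, so the data describe 1 malignant line. Cells of the CXCL12 group (3 arrays) were kept without serum for 90 min and then given CXCL12 at 100 ng/ml for 15 min. Cells of the untreated group (3 arrays) had the same serum-free period and no chemokine. CXCL12 acts on its receptor CXCR4, which couples to G proteins. The labels call the replicates biological without saying that they were separate cultures, and p-values here reflect sample-to-sample spread that may in part be technical. In bulk RNA, fewer cells of a type and less RNA per cell cannot be told apart.

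Cholesterol is built from acetyl-CoA through mevalonate, farnesyl diphosphate, squalene and lanosterol. When sterols in the endoplasmic reticulum membrane run low, the escort protein SCAP carries SREBP to the Golgi, where proteases release a fragment that enters the nucleus and activates these genes. When sterols are plentiful, the INSIG proteins hold SCAP back. Dividing lymphocytes need cholesterol for new membrane and isoprenoids for the lipid anchors of small GTPases.

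The arrays had medians between 6.18 and 6.22 on the log2 scale. Those of the CXCL12 arrays (6.20 to 6.22) all lay above those of the untreated arrays (6.18 to 6.19). Untreated replicate 1 stood apart. It correlated with the other arrays at 0.982 on average, where each of those reached 0.987 to 0.989. Its score on the first principal component was -27.8, and theirs ran from -5.84 to 11.6. Changes that it moved most are given with and without it. All 11 T lymphoid markers fixed for the check, among them CD3E and LCK, were above the limit for dim probe sets, with log2 signals from 8.16 to 11.5 over all 6 arrays. Of the 9 named markers of other cell types, MS4A1, LYZ, EPCAM and ALB were dim and 5 were not. These were CD79A of B cells (means of 7.93 with CXCL12 and 7.92 untreated), CD14 (5.68 and 5.77) and CSF1R (6.08 and 6.12) of myeloid cells, HBB of erythroid cells (5.07 and 4.86) and COL1A1 of fibroblasts (6.58 and 6.75).

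No gene of the list passed the adjusted threshold. With CXCL12, 0 of 24 rose and 0 fell (limma, Benjamini-Hochberg adjusted p from 0.996 to 0.997), where the share of all probe sets called was 0.0124% higher and 0% lower. The median log2 change, CXCL12 minus untreated, was 0.08 over the 24 genes, against 0.00228 over all probe sets tested. Changes were positive for 16 genes and negative for 8 (66.7% positive, against 50.7% of all probe sets). At an unadjusted limma p under 0.05 there was 1 gene higher, STARD4, and 0 lower, against 2.72% higher and 2.01% lower of all probe sets. The 3 CXCL12 arrays lay above all untreated arrays for STARD4, HSD17B7 and HMGCS1, 3 of 24 (12.5%), against 5.05% of all probe sets. They lay below all untreated arrays for 0 of 24, against 4.48%. For 23 of 24 genes (95.8%, against 89.9% of all probe sets), the 95% interval of the change lay within 1.5-fold either way. The median half-width of these intervals was 0.29 on the log2 scale, or 1.22-fold, so smaller changes were not resolved.

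**Figure D1:**
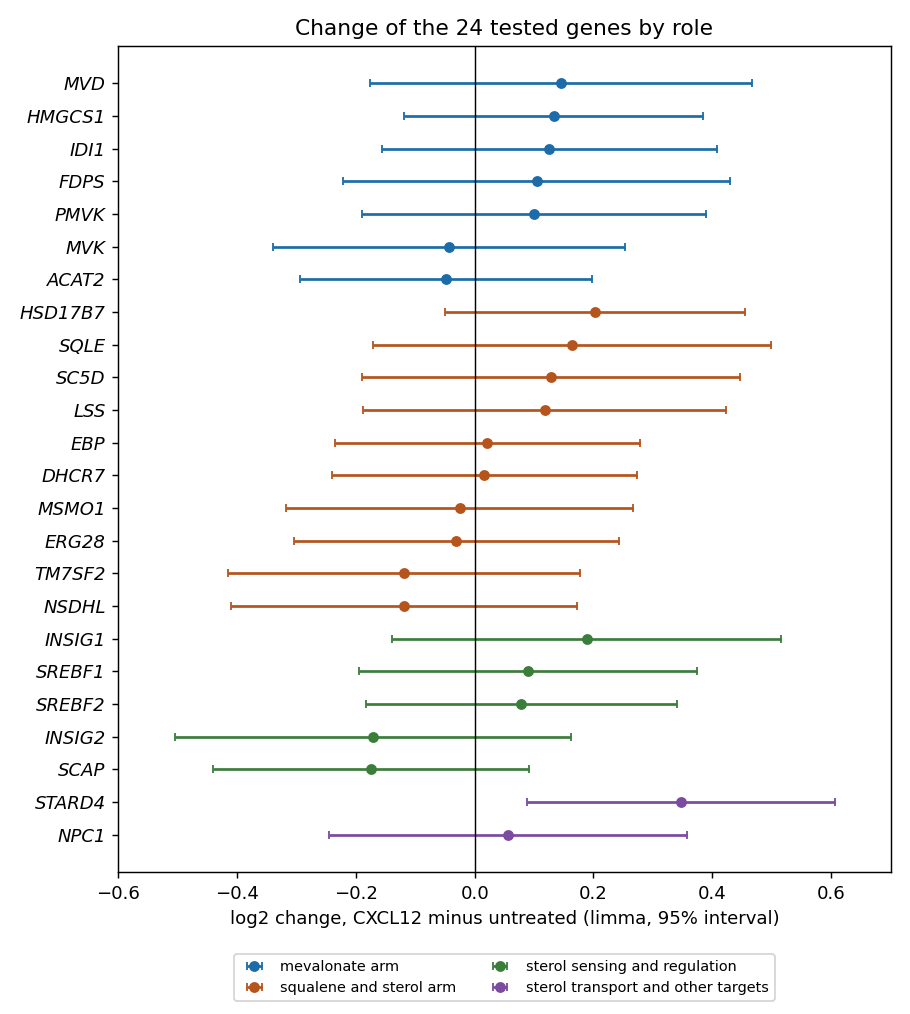
Change of the 24 tested genes with CXCL12, grouped by role. The x axis is the log2 change, CXCL12 minus untreated, points are limma estimates and bars 95% intervals (n = 3 arrays a group). The interval of STARD4, from 0.09 to 0.61, lies above 0, and those of the other 23 genes include 0.

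STARD4, a soluble protein that moves sterol between membranes, had the largest change of the list. Its log2 signal was 9.22, 9.09 and 9.21 in CXCL12 replicates 1, 2 and 3, against 8.74, 8.80 and 8.94 in the untreated ones. The lowest CXCL12 array lay 0.147 above the highest untreated array. The means were 9.17 ± 0.07 with CXCL12 and 8.83 ± 0.10 untreated (SD, n = 3 each), a log2 change of 0.35 (SE 0.12, 95% interval 0.09 to 0.61) or 1.27-fold. The limma p was 0.0129 unadjusted and 0.996 adjusted over all probe sets. By unadjusted p it ranked 198 among the 16086 probe sets, so many probe sets outside the list had smaller p-values. Without untreated replicate 1 the change was 0.30, and the unadjusted limma p stayed under 0.05.

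NPC1, which exports cholesterol from the lysosome, was the other measured gene of sterol transport. It had 8.11, 7.76 and 8.20 with CXCL12, against 7.88, 7.97 and 8.05 untreated. The CXCL12 arrays lay on both sides of the untreated ones, and the log2 change was 0.06 (95% interval -0.25 to 0.36). It was -0.03 without CXCL12 replicate 3 and 0.19 without CXCL12 replicate 2.

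**Figure D2:**
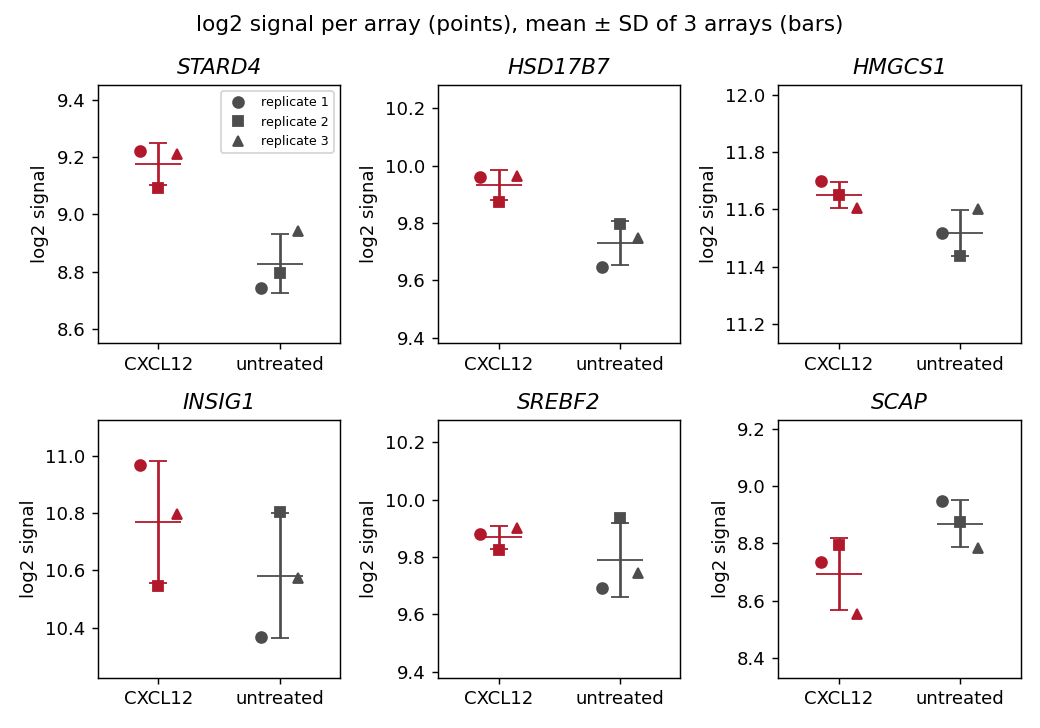
Signal of STARD4, HSD17B7, HMGCS1, INSIG1, SREBF2 and SCAP in each array. The y axis is the log2 signal over a span of 0.9 in each panel and starts above 0, symbols are replicates, and bars are the mean ± SD of 3 arrays. CXCL12 arrays are separate from untreated arrays for STARD4, HSD17B7 and HMGCS1, and overlap them for the other genes.

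In the mevalonate arm, all 7 genes were tested, 5 with a positive and 2 with a negative change, 0 past the threshold, and a median log2 change of 0.10. HMGCS1, the cytosolic HMG-CoA synthase, had 11.70, 11.65 and 11.61 with CXCL12, against 11.52, 11.44 and 11.60 untreated. Its groups were separated by 0.00638 only, far less than the spread within either group. The change was 0.13 (SE 0.12, 95% interval -0.12 to 0.38, limma adjusted p = 0.996).

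MVD, the mevalonate diphosphate decarboxylase, had 10.50, 10.48 and 10.46 with CXCL12, against 10.03, 10.60 and 10.38 untreated. The CXCL12 arrays were close together inside the untreated range, and untreated replicate 1 was the low array. The change was 0.15 (SE 0.15, 95% interval -0.18 to 0.47), and -0.01 without that array. FDPS, which makes farnesyl diphosphate, had 11.26, 10.88 and 11.06 with CXCL12, against 10.69, 11.13 and 11.07 untreated, a change of 0.10 that was -0.03 without untreated replicate 1. The isomerase IDI1 (0.13) and the kinases PMVK (0.10) and MVK (-0.04) also had overlapping arrays, as did ACAT2 (-0.05), the thiolase that starts the route. IDI1 was 0.01 without untreated replicate 2, where its signal was 10.81 against 11.12 to 11.19 in the 5 other arrays.

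In the squalene and sterol arm, 10 of 12 genes were tested, 6 with a positive and 4 with a negative change, 0 past the threshold, and a median log2 change of 0.02. HSD17B7, a sterol ketoreductase, had 9.96, 9.87 and 9.97 with CXCL12, against 9.65, 9.80 and 9.75 untreated. All CXCL12 arrays were the higher ones, the nearest pair 0.0753 apart. The change was 0.20 (SE 0.12, 95% interval -0.05 to 0.45, limma adjusted p = 0.996), and 0.16 without untreated replicate 1. RefSeq lists pseudogenes of HSD17B7, and also of FDPS, IDI1 and CYP51A1, and whether the probes tell them apart from the gene was not examined.

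SQLE, the squalene epoxidase and a rate-limiting step of the pathway, had 9.55, 9.23 and 9.64 with CXCL12, against 9.06, 9.35 and 9.52 untreated. Its arrays overlapped, with CXCL12 replicate 2 below 2 of the untreated arrays. The change was 0.16 (SE 0.15, 95% interval -0.17 to 0.50), and 0.04 without untreated replicate 1. LSS, the lanosterol synthase, had a change of 0.12 that was -0.01 without that array. SC5D, a sterol desaturase, had 0.13, and 0.000452 without untreated replicate 2, its lowest array.

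The other 6 tested genes of this arm had overlapping arrays. DHCR7, the reductase that yields cholesterol, had 0.02, and the sterol isomerase EBP had 0.02. MSMO1 (-0.02) and NSDHL (-0.12) act in removing methyl groups from lanosterol, ERG28 (-0.03) is the scaffold of that complex, and TM7SF2 (-0.12, and -0.05 without untreated replicate 1) is a sterol reductase. NSDHL was -0.000285 without CXCL12 replicate 3, where it had 8.76 against 9.08 and 9.14 in the other CXCL12 arrays and 9.03 to 9.19 in the untreated ones.

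Among the 5 genes of sterol sensing, 3 had a positive and 2 a negative change, 0 past the threshold, and the median log2 change was 0.08. INSIG1, which retains SCAP and is itself a strong SREBP target, had 10.97, 10.54 and 10.80 with CXCL12, against 10.37, 10.80 and 10.57 untreated. The arrays were interleaved. The change was 0.19 (SE 0.15, 95% interval -0.14 to 0.52), 0.08 without untreated replicate 1 and 0.30 without CXCL12 replicate 2. INSIG2, its paralog, had 6.30, 6.14 and 6.49 with CXCL12, against 6.18, 6.61 and 6.65 untreated, a change of -0.17 (95% interval -0.50 to 0.16). Without untreated replicate 1 it was -0.32 (limma adjusted p = 0.979).

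SCAP had 8.74, 8.79 and 8.55 with CXCL12, against 8.95, 8.87 and 8.79 untreated. Its highest CXCL12 array exceeded its lowest untreated array by 0.00883, so the groups overlapped at their edges. The change was -0.17 (SE 0.12, 95% interval -0.44 to 0.09), and -0.10 without CXCL12 replicate 3. SREBF2, which encodes the SREBP that acts mainly on cholesterol genes, had 9.88, 9.82 and 9.90 with CXCL12, against 9.69, 9.94 and 9.74 untreated, a change of 0.08 (0.03 without untreated replicate 1). SREBF1, which encodes the forms that act more on fatty acid genes, had 9.37, 9.44 and 9.46 with CXCL12, against 9.14, 9.54 and 9.33 untreated, a change of 0.09 (-0.008 without untreated replicate 1). For both SREBP genes, the CXCL12 arrays lay within the range of the untreated ones.

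**Figure D3:**
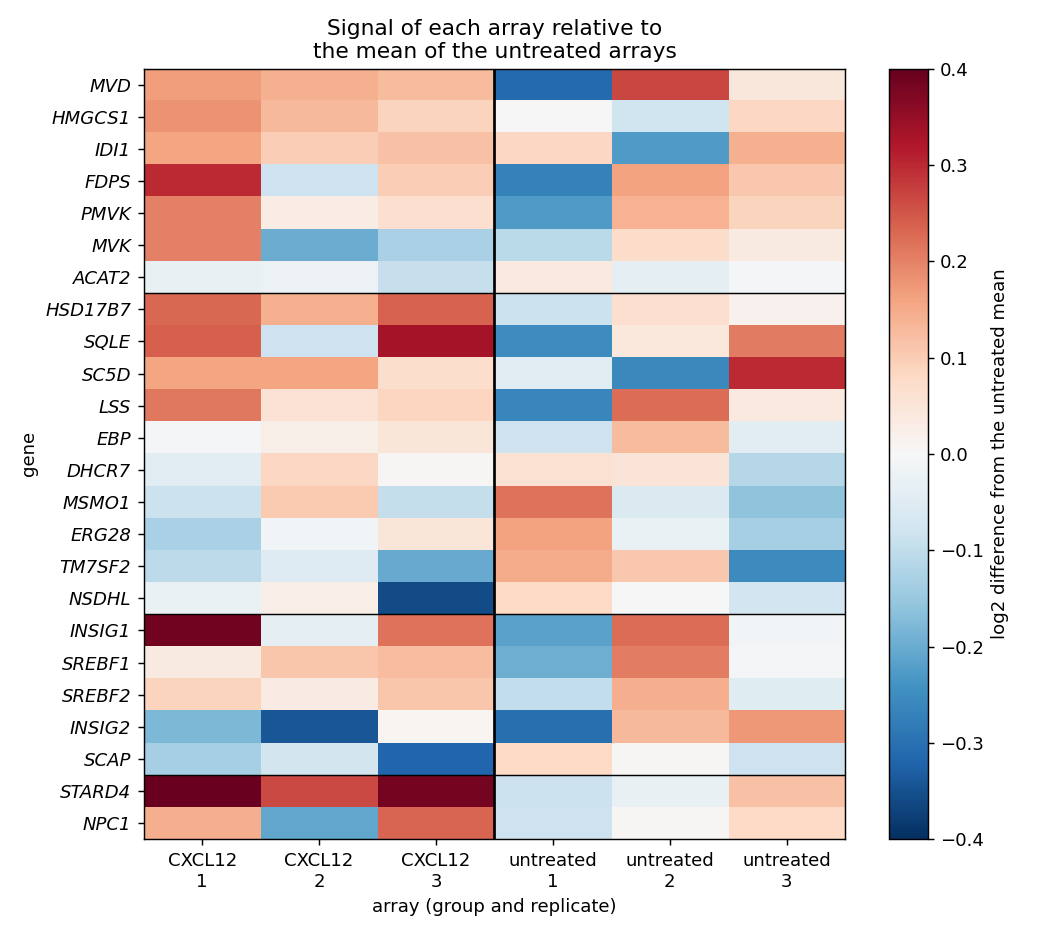
Signal of the 24 tested genes in each array as the log2 difference from the mean of the untreated arrays. Rows are genes in the 4 role groups, columns are arrays with CXCL12 on the left, red is above and blue below the untreated mean. STARD4, HSD17B7 and HMGCS1 are higher in each CXCL12 array than in every untreated array, and 11 genes, among them MVD, LSS and STARD4, are at their lowest in untreated replicate 1.

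The arrays that held a gene's extreme signal differed between the genes. Of the 24, 11 had their lowest signal of all 6 arrays in untreated replicate 1 (45.8%). Over all probe sets it was 4015 of 16086. These were PMVK, MVD, FDPS, SQLE, LSS, HSD17B7, EBP, INSIG1, SREBF1, SREBF2 and STARD4. A further 6 had their highest signal in that same array, a share close to the 3906 of 16086 probe sets that had theirs there. They were MSMO1, NSDHL, TM7SF2, SCAP, ACAT2 and ERG28. In CXCL12 replicate 1, 7 genes had their highest signal (29.2%, against 15.4% of all probe sets) and 0 had their lowest (against 14.6%). The 7 were HMGCS1, MVK, PMVK, IDI1, FDPS, INSIG1 and STARD4. Relative to the untreated mean, the median of the 24 genes was 0.15 in CXCL12 replicate 1, 0.03 in replicate 2 and 0.08 in replicate 3. In untreated replicates 1, 2 and 3 it was -0.08, 0.06 and 0.03. CXCL12 replicate 2 was thus within the untreated range.

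The positive shift was smaller without untreated replicate 1. The median change of the 24 genes was then 0.00306, and 12 had a positive change. The sign turned for 8 genes: PMVK, MVD, FDPS, LSS, EBP and SREBF1 became negative, and MSMO1 and ERG28 positive. The median of the mevalonate arm became -0.01 and that of the sensing genes -0.008, while the squalene and sterol arm had 0.04. STARD4 (0.30), HSD17B7 (0.16) and HMGCS1 (0.13) kept positive changes, and 0 genes passed the adjusted threshold.

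**Figure D4:**
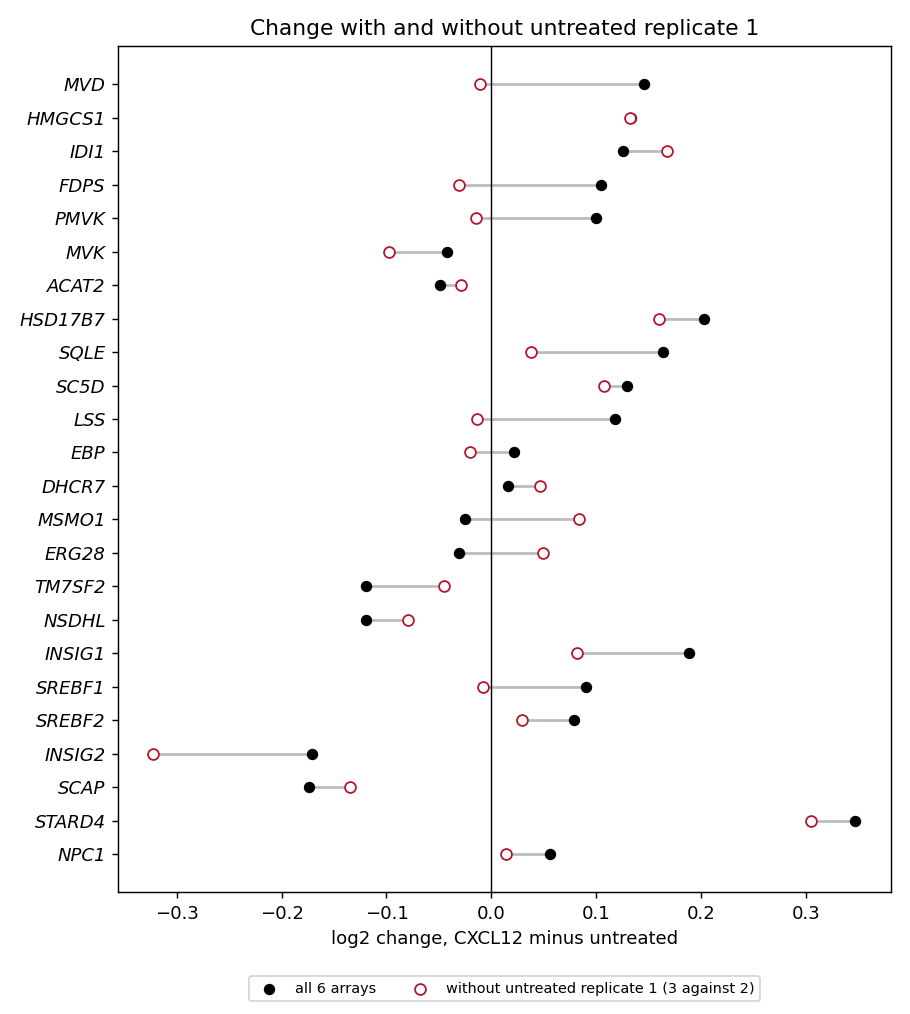
Change of the 24 tested genes with all 6 arrays (filled) and without untreated replicate 1 (open). The x axis is the log2 change, CXCL12 minus untreated, and lines join both values of a gene. MVD, FDPS, PMVK, LSS, EBP and SREBF1 cross 0 to the negative side, and MSMO1 and ERG28 to the positive side. STARD4 stays at the right end with 0.35 and 0.30.

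Promoters of the genes with non-overlapping arrays, of the sensing genes INSIG1 and SREBF2, and of SCAP, which had a negative change, are shown as windows from 250 bases before to 50 after the transcription start. Sequences are from RefSeq (GRCh38.p14), 5′ to 3′. Of the 28 symbols, 25 had at least 1 window, and ACAT2, FDFT1 and SQLE did not match. Capitals mark the NF-Y box CCAAT, or ATTGG on the opposite strand, and the core of the sterol regulatory element, TCACNCCAC, also on both strands. NF-Y is a cofactor with which SREBPs act at many sterol-responsive promoters.
STARD4, chr5:111512486-111512785, minus strand: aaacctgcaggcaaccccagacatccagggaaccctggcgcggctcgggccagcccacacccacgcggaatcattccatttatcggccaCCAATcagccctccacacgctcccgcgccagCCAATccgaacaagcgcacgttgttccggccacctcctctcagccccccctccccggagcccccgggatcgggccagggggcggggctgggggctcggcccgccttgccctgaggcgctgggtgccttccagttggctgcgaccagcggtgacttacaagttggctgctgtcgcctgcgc
HSD17B7, chr1:162790452-162790751, plus strand: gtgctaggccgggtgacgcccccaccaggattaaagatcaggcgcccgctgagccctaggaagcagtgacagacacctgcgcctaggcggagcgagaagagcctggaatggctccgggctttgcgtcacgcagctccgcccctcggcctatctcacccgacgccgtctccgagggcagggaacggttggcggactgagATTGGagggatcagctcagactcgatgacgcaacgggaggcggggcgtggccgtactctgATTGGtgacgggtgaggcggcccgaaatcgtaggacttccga
HMGCS1, chr5:43313363-43313662, minus strand: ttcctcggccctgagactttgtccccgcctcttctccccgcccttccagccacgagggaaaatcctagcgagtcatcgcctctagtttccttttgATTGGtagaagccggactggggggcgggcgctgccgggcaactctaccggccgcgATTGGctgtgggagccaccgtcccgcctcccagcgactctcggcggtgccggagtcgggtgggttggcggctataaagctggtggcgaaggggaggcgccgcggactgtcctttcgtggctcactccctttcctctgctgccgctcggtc
INSIG1, chr7:155297628-155297927, plus strand: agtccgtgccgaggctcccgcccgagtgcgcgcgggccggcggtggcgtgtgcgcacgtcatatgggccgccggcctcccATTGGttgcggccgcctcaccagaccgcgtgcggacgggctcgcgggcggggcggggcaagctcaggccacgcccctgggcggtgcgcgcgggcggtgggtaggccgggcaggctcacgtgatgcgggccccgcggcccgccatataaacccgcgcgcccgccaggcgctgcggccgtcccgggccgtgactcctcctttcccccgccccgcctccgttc
SREBF2, chr22:41832855-41833154, plus strand: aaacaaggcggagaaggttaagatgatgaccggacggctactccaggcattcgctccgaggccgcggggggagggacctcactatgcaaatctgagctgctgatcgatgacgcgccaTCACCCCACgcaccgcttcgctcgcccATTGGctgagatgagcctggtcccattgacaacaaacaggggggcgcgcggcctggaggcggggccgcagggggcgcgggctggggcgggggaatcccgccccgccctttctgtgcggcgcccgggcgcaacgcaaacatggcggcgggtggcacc
SCAP, chr3:47475892-47476191, minus strand: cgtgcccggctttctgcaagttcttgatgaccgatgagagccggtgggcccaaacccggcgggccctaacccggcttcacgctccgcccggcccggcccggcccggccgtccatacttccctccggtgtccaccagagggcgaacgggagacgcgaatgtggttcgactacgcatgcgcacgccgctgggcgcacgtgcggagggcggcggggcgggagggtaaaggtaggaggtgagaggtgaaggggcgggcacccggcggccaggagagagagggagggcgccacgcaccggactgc

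The NF-Y box was in a window of 17 of the 22 tested genes with one, against 39.7% of all genes and 34.6% of all 35116 windows in the table. STARD4 held it 161 and 130 bases before the start, HMGCS1 155 and 100 bases before, and HSD17B7 52 bases before the start and again after it. The HMGCS1 positions are those of the window shown. Another HMGCS1 window, chr5:43313132-43313431, is not shown and held no NF-Y box. INSIG1 and SREBF2 held 1 match each, and SCAP held none. Of the genes with a negative change and a window, MVK, MSMO1, NSDHL, ERG28 and TM7SF2 held the box, and INSIG2, like SCAP, did not. The median log2 change was 0.10 over the 17 genes with the box and 0.06 over the 5 without it, a difference that was not tested. The sterol element core was in 1 of the 22, SREBF2, as TCACCCCAC 133 bases before the start, against 1.39% of all genes and 1.13% of windows. The Sp1 box GGGCGG was in 21 of 22 (48.3% of all genes, 45% of windows), the E-box CANNTG in 15 (73.1% and 68.7%) and the CRE core TGACG in 11 (28.4% and 24.6%). For the E-box the median log2 change was lower with a match (0.02) than without (0.09, 7 genes). For the CRE core it was higher (0.12 against 0.02, 11 genes). With the Sp1 box it was 0.09, against -0.12 in the 1 gene without. SREBF2, with the sterol core, had 0.08, against 0.09 over the 21 without. These differences were not tested either. The table also holds non-coding genes, and base composition was not matched. A match is a description of letters, not of binding. Only exact matches within the windows were counted, so a gene with no match may still have such a site.

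Neighbouring pathways gave 44 tested genes of 54 listed. None passed the adjusted threshold, and 0 had an unadjusted limma p under 0.05, against 2.72% higher and 2.01% lower of all probe sets. In other settings 0 to 2 reached that unadjusted p, ABCG1, LPCAT3, PGGT1B, RNF145 or FNTA, and 0 the adjusted one. Among the 44, 18 changes were positive and 26 negative, and the median log2 change was -0.02 (-0.03 without untreated replicate 1). The arrays of the CXCL12 group lay above all untreated arrays for 0 of 44, against 5.05% of all probe sets. They lay below for 3 (6.82%, against 4.48%), SCD, ERLIN1 and FNTA, which are named after their values were seen.

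The fatty acid arm, which SREBPs also control, had 5 positive and 5 negative changes among 10 genes, with a median of 0.01 (-0.05 without untreated replicate 1). ELOVL6, a fatty acid elongase, had the largest (0.16, 95% interval -0.12 to 0.45), and 0.06 without CXCL12 replicate 3. SCD, which desaturates fatty acids, had 11.28, 11.33 and 11.29 with CXCL12, against 11.42, 11.40 and 11.37 untreated, a change of -0.10. Genes of SREBP processing and sterol-regulated protein degradation had 4 positive and 3 negative changes and a median of 0.08 (0.03 without untreated replicate 1, and -0.02 without CXCL12 replicate 3). RNF145, a ubiquitin ligase of the endoplasmic reticulum, had -0.23 (95% interval -0.51 to 0.05), and ERLIN1, a lipid-raft protein there, -0.18.

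Genes controlled by or encoding LXR, the receptor that answers high sterol, had 1 positive and 3 negative changes among 4 tested, with a median of -0.22 (-0.09 without untreated replicate 1). LPCAT3, which remodels phospholipids, had 7.52, 7.99 and 7.49 with CXCL12, against 8.51, 7.93 and 7.77 untreated, a change of -0.40. ABCG1, a sterol exporter, had 6.23, 6.14 and 5.98 with CXCL12, against 6.76, 6.46 and 6.13 untreated, a change of -0.34. Both were at their highest in untreated replicate 1, and both changes were -0.18 without it.

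The prenyl branch, which uses the pathway's isoprenoids for protein prenylation and processing, dolichol and coenzyme Q, had 5 positive and 7 negative changes among 12, with a median of -0.00824 (0.00588 without untreated replicate 1). PGGT1B, a subunit of an enzyme that adds geranylgeranyl groups, had 0.27 (95% interval -0.02 to 0.55), and FNTA, the subunit that this enzyme shares with farnesyltransferase, -0.24 (-0.50 to 0.03). Genes of sterol esters and membrane transfer had 3 positive and 8 negative changes among 11, with a median of -0.04 (-0.07 without untreated replicate 1). NCEH1, a cholesteryl ester hydrolase, had the largest in size (-0.18), and -0.06 without untreated replicate 2.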

How the data were processed

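RNA of 6 Jurkat samples was measured on 1 Affymetrix array each after whole-transcript labelling, per the labels' protocols. The deposited values are log2 signals, 1 per probe set and array, and the authors' processing named RMA and the Transcriptome Analysis Console, per the submitters' processing notes. The sources used here give no version, setting or genome build. RMA normalizes arrays to each other, so a shift shared by most genes would not show, and values of different probe sets were not compared. The table has 21448 probe sets, of which 17709 had 1 symbol, 0 several and 3739 are unnamed here, by a platform annotation that can be old. A gene was read from its probe set with the highest mean.

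Dim probe sets, those whose mean fell under the 25th percentile, were left out. R 4.3.3 with limma 3.58.1 fitted the 16086 others (lmFit, eBayes, two-sided, no covariates, 3 against 3), adjusted by Benjamini-Hochberg, threshold 0.05. The fit was tested on simulated data: with 200 of 16086 probe sets changed, it recovered 39.4% of log2 changes of 0.5, 91.2% of 0.75 and 99.9% of 1. The simulated arrays were independent draws, so none stood apart as untreated replicate 1 did. With 200 changed probe sets the adjusted cut is also looser than in the real data, where 2 passed. These shares may therefore be too high for the real comparison. Lists were described by counts and medians, with no list test. Genes described in full were those with an unadjusted p under 0.05 and the 2 largest changes per role group, and from each neighbouring list the smallest p and the largest change. FDPS, INSIG2, SREBF1, SREBF2 and other genes given with per-array values were added after their values were seen. The genes and lists were chosen with earlier results of these data known. Scanner files were not used here, and the number of arrays limits the precision.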

Additional observations from a re-analysis of the deposited data

How the results depend on the processing

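With other filters, scalings, priors and weights, with a replicate block, and with each array left out, 0 of the listed genes passed the adjusted threshold and STARD4 kept a positive change (0.30 to 0.40, unadjusted limma p from 0.0065 to 0.045, lowest adjusted p 0.646). The mean of probe sets per symbol changed nothing, as each gene had 1. The median change ran from 0.06 to 0.11 under the other settings, and between 0.00306 and 0.107 with 1 array left out, lowest without untreated replicate 1. With median centring, which sets the array medians equal, it was 0.06, and 14 genes had a positive change, against 16 in the main fit. Quantile normalization and cyclic loess gave 17 each, and array weights 18. The count of genes with an unadjusted p under 0.05 was 1, or 2 without untreated replicate 1 (STARD4 and INSIG2). Over all probe sets, 2 passed, against 1 with no filter on dim probe sets, median centring or cyclic loess, 3 with the lower 50% left out or a trended robust prior, 4 with array weights, and 1 to 2 when each array was left out. Signs turned for MSMO1 with quantile normalization (0.00264), cyclic loess (0.00321) and array weights (0.0253), for ERG28 with array weights (0.0127), and with median centring for EBP (-0.000232) and DHCR7 (-0.00559). When each array was left out, 11 of 24 signs turned: MVK ran from -0.165 to 0.0354, PMVK from -0.0143 to 0.169, MVD from -0.0108 to 0.279, FDPS from -0.0308 to 0.197, LSS from -0.0133 to 0.229, MSMO1 from -0.105 to 0.0836, EBP from -0.0207 to 0.0846, DHCR7 from -0.0407 to 0.0467, SREBF1 from -0.0080 to 0.192, NPC1 from -0.032 to 0.189 and ERG28 from -0.0974 to 0.0491. None of these had passed the threshold, and the causes were not tested. No scaling moved the median of all probe sets beyond -0.02. No pairing is given in the labels. Same-numbered arrays had deviations correlating at -0.19, -0.11 and 0.11. Of all arrays, only CXCL12 replicate 3 correlated best with its own number. CXCL12 replicate 1 did so with untreated replicate 3 (0.19), and CXCL12 replicate 2 with untreated replicate 1 (0.28). The replicate block gave 2 probe sets, 0 listed genes and a median of 0.08.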
